A study of Mus musculus with 6 samples.

Results

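The immediate early genes described here were *Fos*, *Fosb*, *Jun*, *Junb*, *Egr1*, *Ier2*, *Atf3*, *Dusp1*, *Nr4a1* and *Zfp36*, 10 genes chosen by name out of the 20259 genes that the array could name. Each of them was read by 1 transcript cluster, the unit of the exon array that gathers the probes of a gene. The RNA came from the cochlear epithelium of wild type mouse embryos at E15.5, the embryonic day in the labels, on 6 Affymetrix Mouse Exon 1.0 ST arrays. DAPT explants were cultured with 3.33 µM DAPT, a γ-secretase inhibitor that blocks the cleavage of Notch receptors (the protocol text rounds the dose to 3.3 µM), and control explants with 0.013% of the vehicle DMSO. The 3 experiments held 1 DAPT pool and 1 control pool each, and lasted 23 h in experiment 1, 19 h in experiment 2 and 24 h in experiment 3, while the text on the design of the series gives 22 h.

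Cultures of both kinds consisted of cochlear duct with its mesenchyme and spiral ganglion, and both grew in medium with 2.5 ng/ml EGF and 2.2 ng/ml FGF. After culture the explants of a pool were treated with enzymes and the remaining non-epithelial tissue was removed by hand, so that each array stands for the pooled epithelium of several cochleae. Values are log2 signals normalized across the 6 arrays, and a difference of 1 on this scale is a doubling. In such bulk RNA, fewer cells of a type and less RNA per cell cannot be told apart.

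Immediate early genes are transcribed within minutes of a stimulus, without the need for new protein, because the factors that switch them on, chiefly SRF with its ternary complex partners and CREB, already sit in the cell and are activated by kinases such as ERK and p38. Growth factors, serum, stretch, wounding and the enzymatic dissociation of tissue are all known stimuli. Many of the products are transcription factors, among them the FOS and JUN proteins that pair to form AP-1. Others end the response, such as the phosphatase DUSP1 and the RNA-binding protein ZFP36. The transcripts are short-lived, and their levels are known to follow recent stimuli.

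The promoters of 6 members are shown to give sites of the kinds through which such genes are known to be switched on. Those of *Jun*, which held none of the sites marked below, and of *Junb*, which held a half-site, are not printed. The 250 bases before the start site were taken from the RefSeq table of promoters (build GRCm38.p6), which matched 8 of the 10 members, and are written 5′ to 3′ on the strand of the gene. Capitals mark a CArG box (the SRF site), the full cAMP response element TGACGTCA (CRE, the CREB site) and its half-site TGACG, on either strand.
Fosb (chr7:19310046-19310295, - strand): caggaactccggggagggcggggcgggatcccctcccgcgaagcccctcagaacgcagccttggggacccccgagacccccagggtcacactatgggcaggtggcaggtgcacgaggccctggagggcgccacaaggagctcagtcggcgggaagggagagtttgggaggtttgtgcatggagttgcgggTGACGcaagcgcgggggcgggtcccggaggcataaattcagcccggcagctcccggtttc
Nr4a1 (chr15:101266596-101266845, + strand): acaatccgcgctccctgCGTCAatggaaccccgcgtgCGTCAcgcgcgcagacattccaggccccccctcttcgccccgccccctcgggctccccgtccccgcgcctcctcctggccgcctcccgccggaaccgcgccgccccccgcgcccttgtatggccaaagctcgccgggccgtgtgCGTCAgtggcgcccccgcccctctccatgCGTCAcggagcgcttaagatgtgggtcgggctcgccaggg
Dusp1 (chr17:26508473-26508722, - strand): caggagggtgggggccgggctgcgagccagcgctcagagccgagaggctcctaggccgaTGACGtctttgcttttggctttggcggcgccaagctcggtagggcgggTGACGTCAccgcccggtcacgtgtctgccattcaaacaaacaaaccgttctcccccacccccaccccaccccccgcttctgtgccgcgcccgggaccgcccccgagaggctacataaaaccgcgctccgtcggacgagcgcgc
Zfp36 (chr7:28379229-28379478, - strand): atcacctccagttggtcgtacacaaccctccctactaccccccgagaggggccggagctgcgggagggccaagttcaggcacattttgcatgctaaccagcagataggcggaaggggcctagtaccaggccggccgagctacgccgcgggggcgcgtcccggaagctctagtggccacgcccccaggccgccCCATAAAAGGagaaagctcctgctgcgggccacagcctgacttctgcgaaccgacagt
Fos (chr12:85473640-85473889, + strand): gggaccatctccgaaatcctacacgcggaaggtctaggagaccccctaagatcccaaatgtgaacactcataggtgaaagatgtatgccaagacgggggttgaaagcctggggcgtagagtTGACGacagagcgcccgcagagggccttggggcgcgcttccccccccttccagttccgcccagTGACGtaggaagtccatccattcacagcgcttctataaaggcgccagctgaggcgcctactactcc
Atf3 (chr1:191183334-191183583, - strand): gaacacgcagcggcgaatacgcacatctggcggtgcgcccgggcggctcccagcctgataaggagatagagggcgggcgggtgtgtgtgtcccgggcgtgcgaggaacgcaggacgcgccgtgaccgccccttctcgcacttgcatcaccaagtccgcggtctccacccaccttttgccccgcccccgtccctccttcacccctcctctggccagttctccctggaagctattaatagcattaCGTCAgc

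A half-site TGACG stood in 6 of the 8 promoters (*Fos*, *Fosb*, *Junb*, *Atf3*, *Dusp1* and *Nr4a1*), against 17.8% of the 32851 promoters in the table. The full CRE, which holds the half-site on both strands, was found in *Dusp1* alone (1.55% of all promoters). A CArG box was found in *Zfp36* alone (1.47%). The EGR site GCGNGGGCG, counted on both strands, occurred in *Fosb*, *Nr4a1* and *Zfp36* (4.7%), TATAAA in *Fos* (12.4%) and the AP-1 site TGANTCA in none (6.75%). These matches describe exact letters in a short window and were not tested for use in the cochlea. Sites farther from the start, or CArG boxes with other letters, were not searched, so a missing match does not mean a missing site. *Egr1* and *Ier2* are named only.

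Epithelial signals and the effect of DAPT on the Notch pathway were read from marker genes. Of 15 epithelial markers 14 were measured. The summed linear signal of these epithelial markers lay between 28734 and 37924 in DAPT pools and between 33440 and 43064 in control pools. They include *Sox2* and *Lfng*, which were lower with DAPT in all 3 experiments, so the sums do not measure epithelial content alone. *Hey1*, *Heyl*, *Hes1*, *Hes5* and *Jag1* were lower and *Atoh1* higher with DAPT in all 3 experiments. Markers of other tissues differed between the experiments. Experiment 3 had higher signals than experiment 1 for 8 of 10 mesenchyme markers, 7 of 8 endothelial markers, 6 of 10 neuronal markers and 3 of 8 macrophage markers, and lower signals for 4 of 14 epithelial markers (limma, adjusted p under 0.05, against 3.85% of all genes higher and 4.9% lower). The mesenchyme marker *Lum* was lower in that contrast (-0.67, adjusted p = 0.0305). For mesenchyme the sums were 6297, 8552 and 10423 in the DAPT pools of experiments 1, 2 and 3, against 5787, 7951 and 10157 in the control pools. The experiments, their culture times and this tissue content cannot be told apart.

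**Figure D1:**
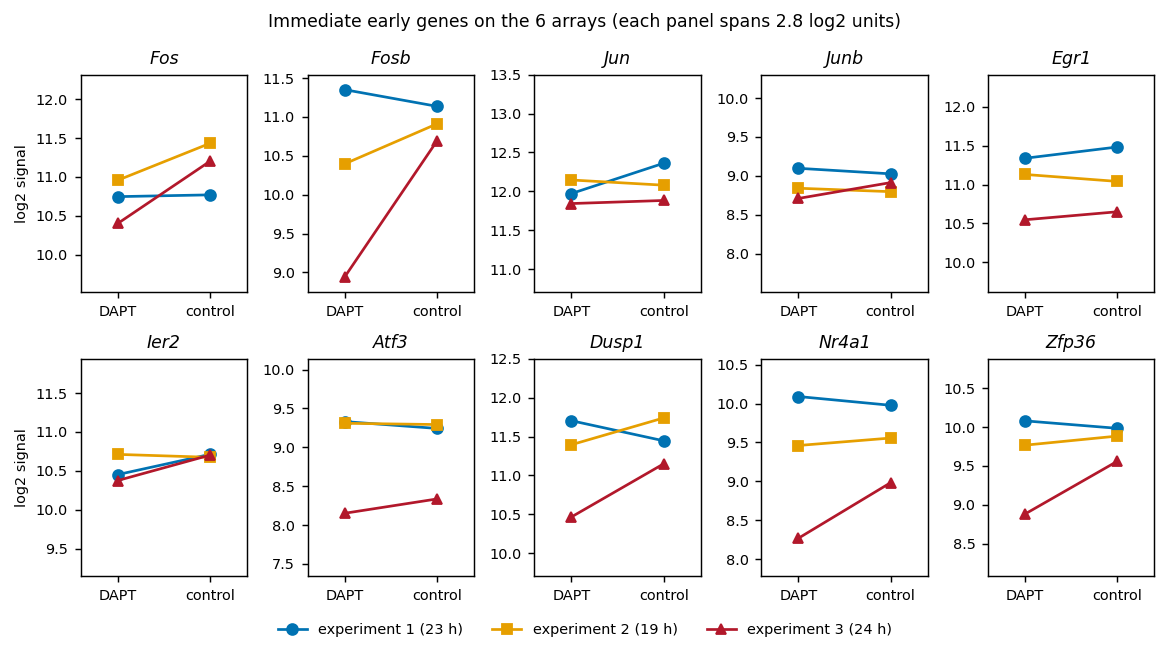
Log2 signal (y axis) of each immediate early gene in the DAPT pool (left) and the control pool (right) of each experiment, with a line joining the pools of 1 experiment. In experiment 3 the DAPT pool was below the control pool for all 10 genes, by 1.75 for *Fosb* and 0.04 for *Jun*.

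Across the 3 experiments no member passed the test for DAPT against control (0 of 10, limma with the experiment as block, Benjamini-Hochberg adjusted p under 0.05). The same test called 0% of all genes, and at an unadjusted p under 0.05 it gave 7.86% of all genes (5.27% higher and 2.59% lower) and 1 member, *Fos*, which was lower. For no member did the 3 DAPT values lie apart from the 3 control values, against 2.35% of all genes with DAPT lower and 4.94% with DAPT higher. A direction common to all members was seen in experiment 3. In experiment 3 all 10 were lower in the DAPT pool than in the control pool, against 44% of all genes, whereas in experiment 1 the DAPT pool was lower for 4 members (44.7% of all genes) and in experiment 2 for 5 (47.4%). The median member differed by 0.08, -0.04 and -0.50 in experiments 1, 2 and 3, and the median of all genes by 0.02, 0.01 and 0.03. A threshold of 0.5, set after the values were seen, was passed downwards in experiment 3 by *Fos*, *Fosb*, *Dusp1*, *Nr4a1* and *Zfp36* (5 of 10, against 1.94% of all genes), in experiment 2 by *Fosb* (1.53%) and in experiment 1 by none (2.12%). With 1 pool of each kind in an experiment, whether the effect of DAPT differed between experiments could not be tested.

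*Fos*, which encodes the founding FOS subunit of AP-1, had signals of 10.75, 10.96 and 10.40 in the DAPT pools of experiments 1, 2 and 3, against 10.77, 11.43 and 11.20 in the control pools. It was the only member lower with DAPT in each experiment (10.5% of all genes were), but DAPT and control values overlapped. Its signal averaged 10.70 ± 0.28 in DAPT pools and 11.13 ± 0.34 in control pools (SD, n = 3 each). The difference was -0.43 ± 0.15 (SE, 95% interval -0.80 to -0.06), with a limma p of 0.0291 and an adjusted p of 0.551. *Fos* was also the only member whose mean over both pools was not lowest in experiment 3.

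*Fosb* encodes a second FOS subunit and had the widest spread of all members. Its signals were 11.35, 10.40 and 8.94 in the DAPT pools of experiments 1, 2 and 3, against 11.14, 10.91 and 10.69 in the control pools. The 3 control pools lay within 0.45 of each other, whereas the DAPT pool of experiment 3 stood far below every other array. DAPT minus control was 0.21, -0.51 and -1.75, the last being a 3.37-fold lower signal. The mean difference of -0.68 ± 0.34 (SE, 95% interval -1.53 to 0.16) had an adjusted p of 0.707 (limma).

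Of the JUN subunits, *Jun* had signals of 11.97, 12.15 and 11.84 in DAPT pools of experiments 1, 2 and 3, against 12.36, 12.08 and 11.88 in control pools. *Junb* had signals of 9.10, 8.84 and 8.71 in DAPT pools, against 9.02, 8.80 and 8.91 in control pools. For both the DAPT and control values were interleaved. The mean difference was -0.12 ± 0.11 for *Jun* (SE, limma adjusted p = 0.857), and -0.03 ± 0.09 for *Junb* (adjusted p = 0.972), whose sign turned under another round of quantile normalization (0.01) and after centring on housekeeping genes (0.01). Neither gene passed the test between experiments (adjusted p = 0.319 for *Jun* and 0.285 for *Junb*).

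*Atf3*, a stress-induced partner and repressor of AP-1 and CRE sites, separated the experiments and not the treatments. Its signals were 9.33, 9.31 and 8.15 in the DAPT pools of experiments 1, 2 and 3, against 9.24, 9.29 and 8.34 in the control pools. The pools of experiments 1 and 2 lay within 0.09 of each other and both pools of experiment 3 lay about 1 unit below them. Experiment 3 was lower than experiment 1 by 1.04 ± 0.11 on the log2 scale (SE, limma adjusted p = 0.0109), a 2.06-fold difference. DAPT minus control averaged -0.03 ± 0.09 (SE, adjusted p = 0.974), with a sign that turned under another quantile normalization (0.01) and housekeeping centring (0.02).

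*Egr1* and *Nr4a1* are transcription factors of other families, a zinc finger protein and an orphan nuclear receptor. *Egr1* had signals of 11.34, 11.13 and 10.55 in the DAPT pools of experiments 1, 2 and 3, against 11.48, 11.04 and 10.65 in the control pools. The pools of an experiment stayed close while the experiments were apart, and all 4 pools of experiments 1 and 2 exceeded both pools of experiment 3. Experiment 3 was lower than experiment 1 by 0.81 ± 0.10 (SE, limma adjusted p = 0.0149), a 1.76-fold difference. DAPT minus control averaged -0.05 ± 0.08 (SE, adjusted p = 0.941), and turned to 0.045 under another quantile normalization.

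*Nr4a1* had signals of 10.09, 9.46 and 8.27 in the DAPT pools of experiments 1, 2 and 3, against 9.98, 9.56 and 8.98 in the control pools. Here the experiments stood apart in both kinds of pool, and the DAPT pool of experiment 3 was lowest. Experiment 3 was lower than experiment 1 by 1.41 ± 0.20 (SE, limma adjusted p = 0.0183), a 2.66-fold difference. DAPT minus control was 0.11, -0.10 and -0.72 in the 3 experiments, with a mean of -0.23 ± 0.16 (SE, adjusted p = 0.802).

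*Ier2*, a nuclear protein of the same early response, had signals of 10.45, 10.71 and 10.38 in the DAPT pools of experiments 1, 2 and 3, against 10.71, 10.67 and 10.70 in the control pools. Its control pools were the most alike of any member (10.70 ± 0.02, SD, n = 3), and the DAPT pools of experiments 1 and 3 lay below all 3 of them. The mean difference was -0.18 ± 0.10 (SE, limma adjusted p = 0.723), and the experiments were not told apart (adjusted p = 0.639).

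Like all other members, those that end the response were lower in the DAPT pool of experiment 3 than in its control pool. *Dusp1*, a phosphatase that inactivates p38 and JNK, had signals of 11.70, 11.39 and 10.47 in the DAPT pools of experiments 1, 2 and 3, against 11.45, 11.74 and 11.15 in the control pools. *Zfp36*, which binds AU-rich elements and speeds the decay of their mRNAs, had signals of 10.08, 9.77 and 8.88 in the DAPT pools, against 9.98, 9.88 and 9.56 in the control pools. In experiment 1 the DAPT pool was the higher one for both genes, by 0.26 for *Dusp1* and 0.10 for *Zfp36*, and in experiment 3 it was lower, by differences of -0.68 for each. The mean difference was -0.26 ± 0.18 for *Dusp1* (SE, limma adjusted p = 0.798) and -0.23 ± 0.15 for *Zfp36* (SE, adjusted p = 0.79).

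**Figure D2:**
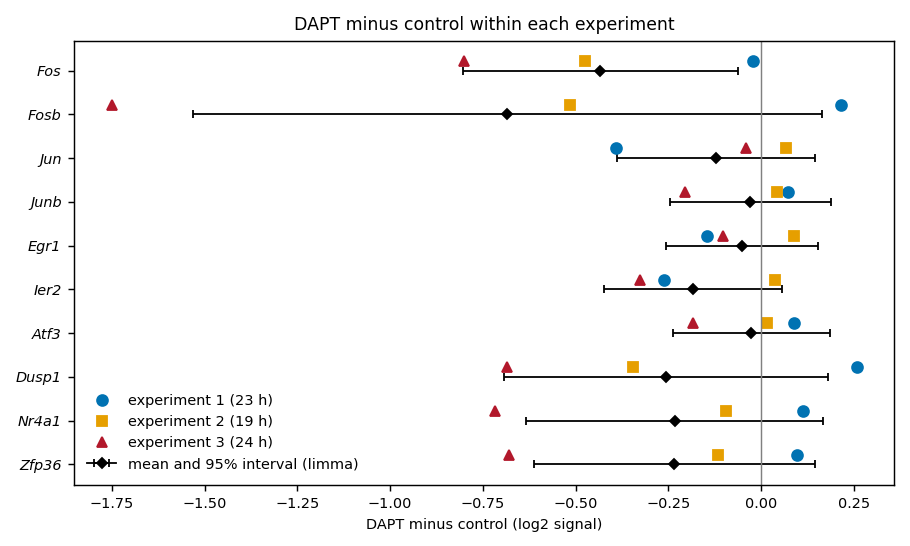
DAPT minus control (log2, x axis) of each gene in each experiment (coloured points), with the mean of the 3 experiments and its 95% interval from limma (black). Points of experiment 3 lie left of 0 for all 10 genes, and the interval leaves out 0 for *Fos* alone (-0.80 to -0.06), which the adjustment over all genes did not carry (adjusted p = 0.551).

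The spread of the members was larger in DAPT pools than in control pools for 7 of 10 genes, against 54.6% of all genes. The median range over the 3 pools was 0.99 for DAPT and 0.53 for control, and 0.27 and 0.25 for the median gene. *Fosb* spanned a range 5.41 times as wide over DAPT pools as over control pools (2.41 against 0.45). The ratio of 8.76 for *Ier2* came from a very small control range (0.34 against 0.04). The DAPT pool of experiment 3 held the lowest of the 6 values for every member (10 of 10, against 18.6% of all genes). The mean log2 signal over the 10 genes was 10.62, 10.41 and 9.66 in DAPT pools of experiments 1, 2 and 3, against 10.61, 10.54 and 10.21 in control pools, so that experiment 3 was low in both kinds of pool and lowest with DAPT.

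The experiment means of a member had a median range, highest minus lowest, of 0.79 over the 10 genes (0.22 over all genes). The median DAPT minus control was -0.21 (0.02 over all genes). A range is never negative whereas signed differences of genes can cancel, so the 2 measures are not comparable in size. The F test over the 3 experiments, with DAPT in the model, called *Egr1*, *Atf3* and *Nr4a1* (3 of 10, adjusted p of 0.0311, 0.0211 and 0.0375 in limma), against 5.17% of all genes. All 10 members lay above the median signal of 7.785. Among the 10129 genes above it the F test also called 3 members, against 14.5% of those genes. *Egr1*, *Atf3* and *Nr4a1* were lower in experiment 3 than in experiment 1 (4.9% of all genes). *Zfp36* (-0.81 ± 0.19), *Dusp1* (-0.77 ± 0.22) and *Fosb* (-1.43 ± 0.42) did not pass the adjusted threshold (SE, limma adjusted p = 0.0559, 0.0901 and 0.0996). *Jun* (-0.30), *Junb* (-0.25), *Ier2* (-0.04) and *Fos* (0.04) differed less, and the last changed sign with another quantile normalization (-0.02) and median centring (-0.01). Against experiment 2, experiment 3 gave 0 members at an adjusted p under 0.05 (0.00494% of all genes were lower), with *Atf3* the nearest to it (-1.06 ± 0.11, SE, limma adjusted p = 0.0804), and 5 at an unadjusted p under 0.05 (7.08%). Experiment 2 against experiment 1 gave 0 (1.4%), with *Egr1* and *Nr4a1* lower at an unadjusted p under 0.05 (10.6%).

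**Figure D3:**
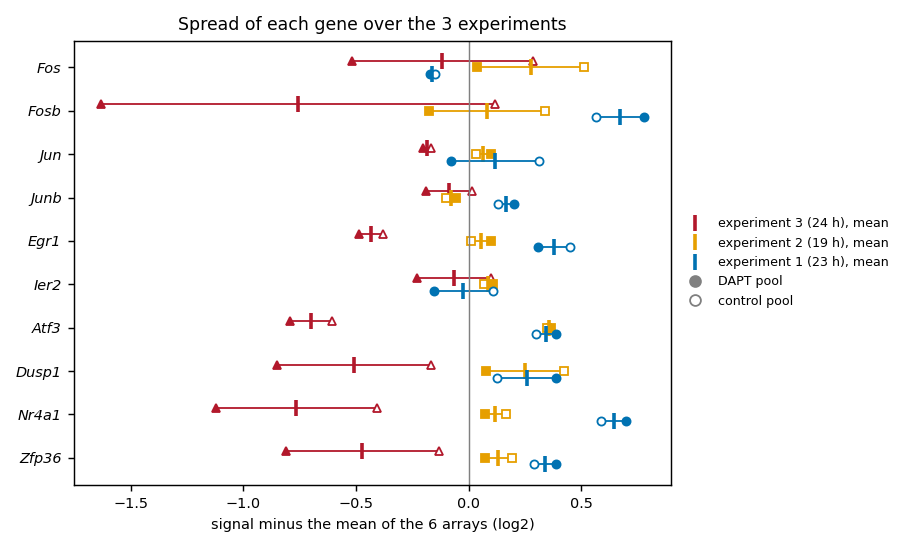
Signal of each gene in each pool minus its mean over the 6 arrays (log2, x axis), with filled markers for DAPT pools, open markers for control pools and a bar at the mean of an experiment. Experiment 3 had the lowest mean for 9 of 10 genes, *Fos* being the exception, and lay 1.43 below experiment 1 for *Fosb* and 1.41 for *Nr4a1*.

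The lowest experiment mean was that of experiment 3 for 9 of 10 members, against 36.6% of all genes. That of experiment 1 was lowest for *Fos* (40.4% of all genes), and that of experiment 2 for none (23% of all genes). These counts were chosen after the values were seen. Both pools of experiment 3 lay below the other 4 arrays for *Jun*, *Egr1*, *Atf3*, *Dusp1*, *Nr4a1* and *Zfp36* (13.9% of all genes). Without experiment 2 the test between experiments called 3 members (4.47% of all genes), and without experiment 1 or without experiment 3 it called 0 (0.00494% and 2.17% of all genes). Without experiment 1, where 1 gene in all was called, the difference of *Atf3* between experiment 3 and experiment 2 was -1.06 ± 0.09 (SE, limma adjusted p = 0.0865). For experiment 3 minus experiment 1, the markers of mesenchyme, endothelium, neurons, macrophages and epithelium had median differences of 0.91, 1.08, 0.86, 0.45 and -0.43. Between the DAPT and control pools of experiment 3, the same lists had medians of 0.04, -0.01, 0.01, 0.17 and -0.19. The epithelial list includes *Sox2* and *Lfng*, which were lower with DAPT in every experiment. The part of these tissues in the lower signals of the immediate early genes was not tested.

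A wider list of 41 other immediate early genes, all measured, was read for the same contrasts. In experiment 3, 13 were lower than in experiment 1 and 0 higher (limma adjusted p under 0.05, against 4.9% and 3.85% of all genes), with a median of -0.40. *Egr3*, a relative of *Egr1*, had signals of 10.23, 8.83 and 8.03 in the DAPT pools of experiments 1, 2 and 3, against 10.13, 8.91 and 8.27 in the control pools. No pool of an experiment overlapped with those of another, and experiment 3 was lower than experiment 1 by 2.03 ± 0.11 (SE, adjusted p = 0.00549). *Egr2* (-1.36), *Nr4a3* (-1.34), *Csrnp1* (-1.28) and *Arc* (-1.22), the last a cytoskeletal protein of activated neurons, followed with adjusted p of 0.0169, 0.00773, 0.00773 and 0.0109. *Ccn2*, a matrix protein gene that responds to stretch through SRF and YAP, differed by -1.02 (adjusted p = 0.0292).

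For DAPT against control the wider list had a median difference of -0.04 over the 3 experiments and -0.04 in experiment 3, where all genes had 0.02 and 0.03. None passed the adjusted test, and *Nfkbiz*, an atypical inhibitor of NF-κB, was the only gene at an unadjusted p under 0.05 (-0.36, limma adjusted p = 0.492). In experiment 3 the DAPT pool was lower by 0.5 or more for 6 of the 41 (*Btg2*, *Ccn1*, *Ccn2*, *Egr2*, *Errfi1* and *Nfkbiz*) and higher by as much for *Gadd45g*, against 1.94% and 2.72% of all genes. The DAPT pool of experiment 3 was the lowest array for 22 of the 41 (18.6% of all genes).

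Genes of the signaling steps around this response were read in the same way. Of the 11 measured genes among 12 that feed back on ERK, 4 were lower in experiment 3 than in experiment 1 and 1 was higher (4.9% and 3.85% of all genes). *Dusp5*, a nuclear phosphatase of ERK, had signals of 11.04, 10.27 and 9.04 in the DAPT pools of experiments 1, 2 and 3, against 11.19, 10.10 and 8.83 in the control pools. Its difference of -2.18 ± 0.12 (SE, limma adjusted p = 0.00549) stood beside those of the ERK pathway inhibitors *Spry2* (-0.91, adjusted p = 0.0121) and *Spry1* (-0.77, adjusted p = 0.0149), of *Etv5*, an ETS factor induced by FGF (-0.78, adjusted p = 0.0484), and of *Spry4*, which was higher (0.41, adjusted p = 0.0483). With DAPT, *Dusp6* (-0.28) and *Spry2* (-0.22) were lower in all 3 experiments at an unadjusted p under 0.05, with limma adjusted p of 0.441 and 0.572.

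Among the 22 measured of 25 kinases, receptors and factors upstream, *Srf* itself was lower in experiment 3 than in experiment 1 (-0.88, limma adjusted p = 0.0171), as was its coactivator *Mrtfa* (-0.64, adjusted p = 0.0297), and 0 were higher. Of all genes, 4.9% were lower and 3.85% higher. None of the 22 reached an unadjusted p under 0.05 for DAPT. Of the 16 measured of 17 other AP-1 and ATF family genes, *Fosl2*, *Maff*, *Mafk* and *Atf5* were lower in experiment 3 than in experiment 1 (4 of 16, against 4.9% of all genes), the first 3 of which also belong to the wider list. *Actb*, an SRF target that was listed with the housekeeping genes, differed between DAPT and control by 0.57, -0.20 and -0.63 in experiments 1, 2 and 3, and the median of the 10 housekeeping genes by -0.09 in experiment 3.

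**Figure D4:**
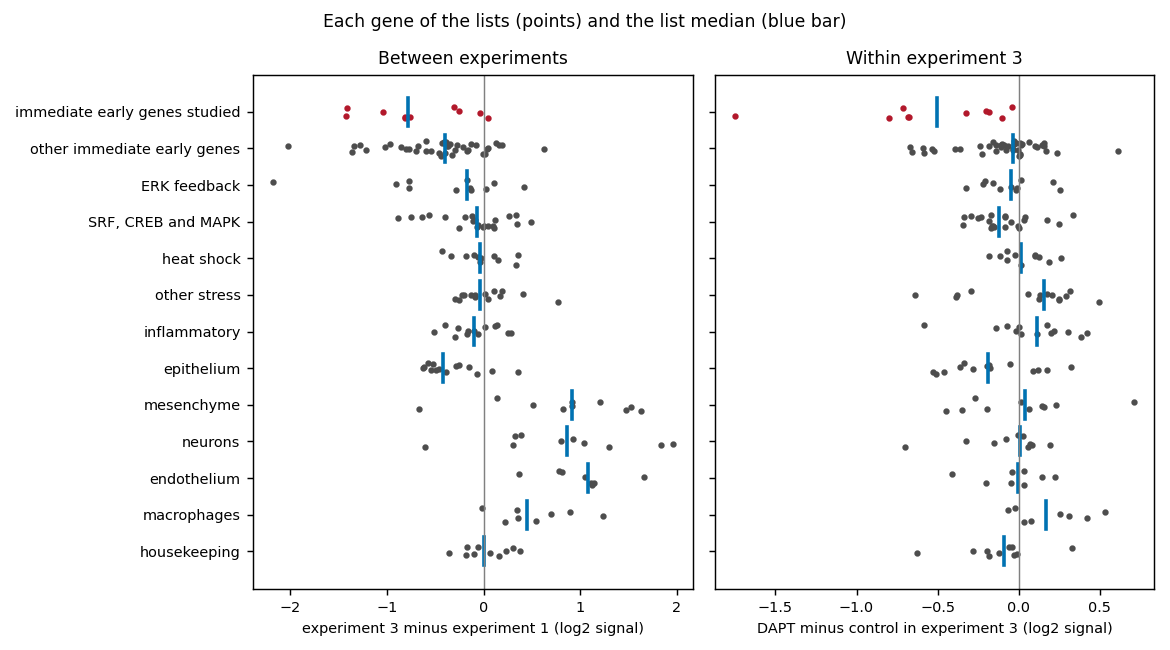
Each point is a gene of the list named at the left, with its log2 difference on the x axis (left panel, experiment 3 minus experiment 1; right panel, DAPT minus control in experiment 3) and a blue bar at the list's median. The 10 immediate early genes (red) had a median of -0.79 in the left panel and -0.50 in the right one, against 0.00 and 0.03 for all genes.

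The genes most like the members were sought among the 10119 other genes above the median signal, by the mean absolute difference over the 6 arrays between centred profiles. *Mfsd2a* (0.05), *Gm5784* (0.06) and *Ccn1* (0.06) came closest, followed by *Ubald1* (0.08), *Adamts19* (0.09) and *Isl1* (0.09). *Ccn1*, a matrix protein gene of the wider list, had signals of 10.67, 10.24 and 9.52 in DAPT pools of experiments 1, 2 and 3, against 10.44, 10.38 and 10.05 in control pools. *Isl1*, a transcription factor of sensory progenitors and spiral ganglion neurons that was listed as a neuronal marker, had signals of 9.89, 9.65 and 8.996 in DAPT pools, against 10.02, 10.02 and 9.70 in control pools. Of the members themselves *Zfp36* lay nearest to the mean profile (0.05) and *Fosb* farthest (0.40).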

How the data were processed

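RNA of 6 pools was hybridised to Mouse Exon 1.0 ST arrays. The authors normalized the scans by RMA in Partek, so what they deposited is a log2 signal for each transcript cluster. The processing notes name the mm9 build. Of 115830 clusters, 25539 were annotated with 1 gene and gave 20259 genes, each represented by its cluster of highest mean. Array medians lay between 6.297 and 6.364.

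The effect of DAPT was tested in limma (version 3.58.1, R 4.3.3, lmFit and eBayes, experiment as block, two-sided), with Benjamini-Hochberg adjustment over all genes at 0.05. Experiments were compared by F test and pairwise contrasts in the same fit. The labels number the experiments, and pools of one number share a culture time, so the numbers were taken as pairs. Deviations from the group means went together within a number (r of 0.556, 0.434 and 0.513, against at most 0.00925 between numbers). The deviations of a group cancel out, so the r between numbers are not independent of those within. For DAPT, p-values set its mean difference against the spread of DAPT minus control over these 3 experiments. In limma that spread is drawn toward the spread common to all genes, so it is not the gene's own alone. For *Fos* the SE was 0.15 in limma (unadjusted p = 0.0291). In the plain paired comparison, which uses the gene's own spread, it was 0.226 (unadjusted p = 0.195). The p-values between experiments use the same residual, with the DAPT and control pool of an experiment as its only arrays. They do not measure how far repeated experiments would differ. The method was tested on simulated data. All members, the Notch genes and the 6 genes most like the members were named. From each other list, genes were drawn from the 3 highest, the 3 lowest, the 3 most variable between experiments and those called between experiments. Not every gene that this rule reaches is named. *Actb*, *Btg2*, *Errfi1*, *Mt1* and *Srxn1* were named after their values were seen where this rule did not reach them. Members and lists were chosen with earlier results of these data known. Alternatives were no block, each experiment left out, 3 other scalings, a signal filter, averaged clusters, a trend and robust prior, array weights and plain comparisons.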

Additional observations from a re-analysis of the deposited data

How the results depend on the processing

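The count of members called for DAPT was 0 under every alternative run. At an unadjusted p under 0.05 *Fos* alone was lower, but 0 members were without the replicate block, after another quantile normalization, and in the plain one-way and plain paired comparisons, 2 with array weights, and between 0 and 3 without 1 experiment (3 without experiment 1, 0 without experiment 3). The median difference of the members, -0.21, ranged from -0.27 to -0.04 without 1 experiment. Over all genes the DAPT calls numbered 0 in the main setting, 30 with array weights, 26 above the median signal, 6 with averaged clusters, 6 with a trend and robust prior and 3 after another quantile normalization, none of them a member. The calls between experiments, 3, ranged from 0 to 3 without 1 experiment, and those of experiment 3 against experiment 1 numbered 5 above the median signal. With that filter the F test between experiments called 14.5% of the 10129 genes kept, against 5.17% of all genes in the main setting.

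Small DAPT differences changed sign. Without 1 experiment the difference ranged from -0.215 to 0.0136 for *Jun* (positive without experiment 1) and, positive without experiment 3, from -0.0802 to 0.0576 for *Junb*, -0.0842 to 0.0522 for *Atf3* and -0.406 to 0.00848 for *Nr4a1*. Another quantile normalization gave 0.00977 for *Junb*, 0.045 for *Egr1* and 0.00687 for *Atf3*, housekeeping centring 0.0128 for *Junb* and 0.0157 for *Atf3*, and array weights 0.00463 for *Egr1*. For experiment 3 against 1, *Fos* came to -0.0204 after another quantile normalization and -0.0121 after median centring. *Junb* came to 0.0295 for experiment 3 against 2 after housekeeping centring, and *Atf3* to -0.0158 and -0.0512 for experiment 2 against 1 after median and housekeeping centring. The cause was not tested. *Zfp36* passed the adjusted threshold for experiment 3 against 1 in 5 settings (adjusted p in limma of 0.0274 to 0.0496). *Dusp1* did so above the median signal (adjusted p = 0.049), and *Atf3* passed it for experiment 3 against 2 above the median signal and with array weights (adjusted p = 0.0351 and 0.0297). The precision is set by the number of arrays.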

Other observations

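Of 16 genes of the oxidative and unfolded protein responses, 14 were measured, and 4 of them were higher with DAPT at an unadjusted p under 0.05 in limma (5.27% of all genes), each in all 3 experiments. *Nqo1*, a quinone reductase, was higher by 0.36 ± 0.08 (SE, limma adjusted p = 0.363). *Hmox1*, which breaks down haem, was higher by 0.33 (adjusted p = 0.452), the metallothionein *Mt1* by 0.32 (adjusted p = 0.619) and *Srxn1*, which repairs peroxiredoxins, by 0.21 (adjusted p = 0.595). *Hspa5*, the chaperone of the endoplasmic reticulum, went the other way and was lower with DAPT in all 3 experiments. Its mean difference was -0.24 (limma unadjusted p = 0.0193, adjusted p = 0.481). *Ddit3*, a factor of the unfolded protein response, had DAPT minus control differences of 0.43, -0.21 and -0.64 in experiments 1, 2 and 3, and *Atf4*, its upstream activator, of 0.25, -0.17 and -0.38. *Atf4* was chosen after its values were seen. None of these passed the adjusted test, and of the 14 only *Nqo1* passed it between experiment 3 and experiment 1 (0.77, adjusted p = 0.0162).

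Of 15 heat shock genes 11 were measured, and 0 reached an unadjusted p under 0.05 for DAPT or an adjusted p under 0.05 between experiments in limma (7.86% and 5.17% of all genes). Their median difference was -0.04 for DAPT and -0.04 for experiment 3 against experiment 1. Among 13 inflammatory genes, *Tnf* (0.23) and *Nfkbiz* (-0.36) had an unadjusted p under 0.05 for DAPT (7.86% of all genes), and 0 passed the adjusted test between experiments (5.17%).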
